A study of Homo sapiens with 12 samples.

Results

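The miR-23, miR-27 and miR-24 microRNAs were measured in KYSE150 cells, an established line of oesophageal squamous cell carcinoma, with and without added galectin-9, a secreted protein of the beta-galactoside-binding lectin family. Members were chosen by name, as every probe for a mature arm of miR-23a, miR-23b, miR-24, miR-27a or miR-27b, which gave 11 of the 2565 human miRNA probes on the array. The galectin-9 group held 6 samples treated at 100 nM for 6 h and the control group held 6 samples without galectin-9, all grown in medium with 2% fetal bovine serum. Total RNA was labelled with Cy5 and each sample was read on its own single-colour 3D-Gene array. No label ties the numbered samples to cultures of their own, so every p-value covers only how far these samples scatter, and that scatter may be technical.

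These microRNAs come from a pair of clusters, each with a miR-23, a miR-27 and a miR-24 hairpin transcribed together. A hairpin gives a 5p and a 3p arm, and for these hairpins the 3p arm is the one usually loaded into Argonaute to repress messenger RNAs that match its seed, the stretch from base 2 to base 8. The miR-23 arms are known to be repressed by MYC in human cells. The miR-27 arm is known for repression of the adipogenic regulator PPARG, and the miR-24 arm for restraint of cell cycle genes. Both clusters are also studied in endothelium, muscle and blood.

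The cluster on chromosome 19 lies at chr19:13836287-13836659 (GRCh38.p14, minus strand), 373 bases with MIR23A, MIR27A and MIR24-2, inside the span of the long non-coding host gene MIR23AHG. The cluster on chromosome 9 lies at chr9:95085208-95086088 (plus strand), 881 bases with MIR23B, MIR27B and MIR24-1, inside the span of the aminopeptidase gene AOPEP. The hairpin MIR3074 lies on the opposite strand across MIR24-1. All 11 members matched a RefSeq mature sequence of that build, shown here because the paralogs are nearly alike and a probe may read more than 1 of them. Capitals mark the seed, and sequences run 5′ to 3′. The 3p arms of miR-23 share the seed UCACAUU, also with miR-23c from chromosome X:
hsa-miR-23a-3p: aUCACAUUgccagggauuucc
hsa-miR-23b-3p: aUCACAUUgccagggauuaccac
hsa-miR-23c: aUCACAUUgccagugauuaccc
The 3p arms of miR-27 share the seed UCACAGU, and the seed of miR-128-3p is the same run moved by 1 base:
hsa-miR-27a-3p: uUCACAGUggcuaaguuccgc
hsa-miR-27b-3p: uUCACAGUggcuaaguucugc
hsa-miR-128-3p: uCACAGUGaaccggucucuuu
The mature miR-24-3p is identical from MIR24-1 and MIR24-2, so its probe cannot assign it to a cluster:
hsa-miR-24-3p: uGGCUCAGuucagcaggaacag
The 5p arms of the miR-24 hairpins differ, and each belongs to 1 cluster:
hsa-miR-24-2-5p: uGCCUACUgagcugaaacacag
hsa-miR-24-1-5p: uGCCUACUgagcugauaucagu
The other 5p arms are:
hsa-miR-23a-5p: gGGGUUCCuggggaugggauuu
hsa-miR-23b-5p: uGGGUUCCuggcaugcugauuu
hsa-miR-27a-5p: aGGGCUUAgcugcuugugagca
hsa-miR-27b-5p: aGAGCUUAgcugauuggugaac
Counted from the 5′ end, miR-23a-3p and miR-23b-3p differ over their first 21 bases only by U19A, and miR-23b-3p is 2 bases longer, with 23 bases. miR-27a-3p and miR-27b-3p differ only by C19U. The 5p arms are less alike, with 15 of 22 bases identical for miR-23 and 14 of 22 for miR-27. For miR-24 it is 16 of 22, with no difference before base 16. Signal shared between paralog probes was not tested.

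Arrays had 934 to 2045 detected probes, where detected means that the file lists a background-subtracted intensity. Of all human probes, 1734 were detected on at least 6 arrays and were tested, and 891 were detected on all 12. File names place the arrays on 3 slides of 4 positions. Galectin-9 arrays lay at positions 2 and 4 and control arrays at positions 1 and 3, so position parity and treatment cannot be told apart. Odd replicate numbers lay at positions 1 and 2 and even ones at positions 3 and 4. The squamous and epithelial markers miR-205-5p, miR-203a-3p, miR-31-5p, miR-200c-3p and miR-141-3p were detected on all arrays and miR-944 on 11. Of the muscle markers, miR-1-3p was detected on 0 arrays, while miR-133b was detected on 6 galectin-9 and 5 control arrays, miR-206 on 5 and 3, and miR-133a-3p on 3 and 2. Endothelial miR-126-3p was detected on all arrays.

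Galectin-9 treatment gave no change in the miR-23, miR-27 and miR-24 probes that passed the test. None of the 11 members passed an adjusted p of 0.05 in limma, against 0.173% of the 1734 tested probes, or 3 probes, all higher with galectin-9. At an unadjusted p under 0.05, 1 member was reached, miR-24-2-5p, against 12.9% of the tested probes. By sign, 3 members lay above 0 and 8 below, with a median log2 difference of -0.09. Over all tested probes the median was -0.07, and 36.6% lay above 0. The groups of arrays overlapped for all 11 members on this scale, and 1.56% of tested probes had groups that did not. In RNA from bulk culture, fewer cells that make a microRNA and less of it per cell cannot be told apart.

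**Figure D1:**
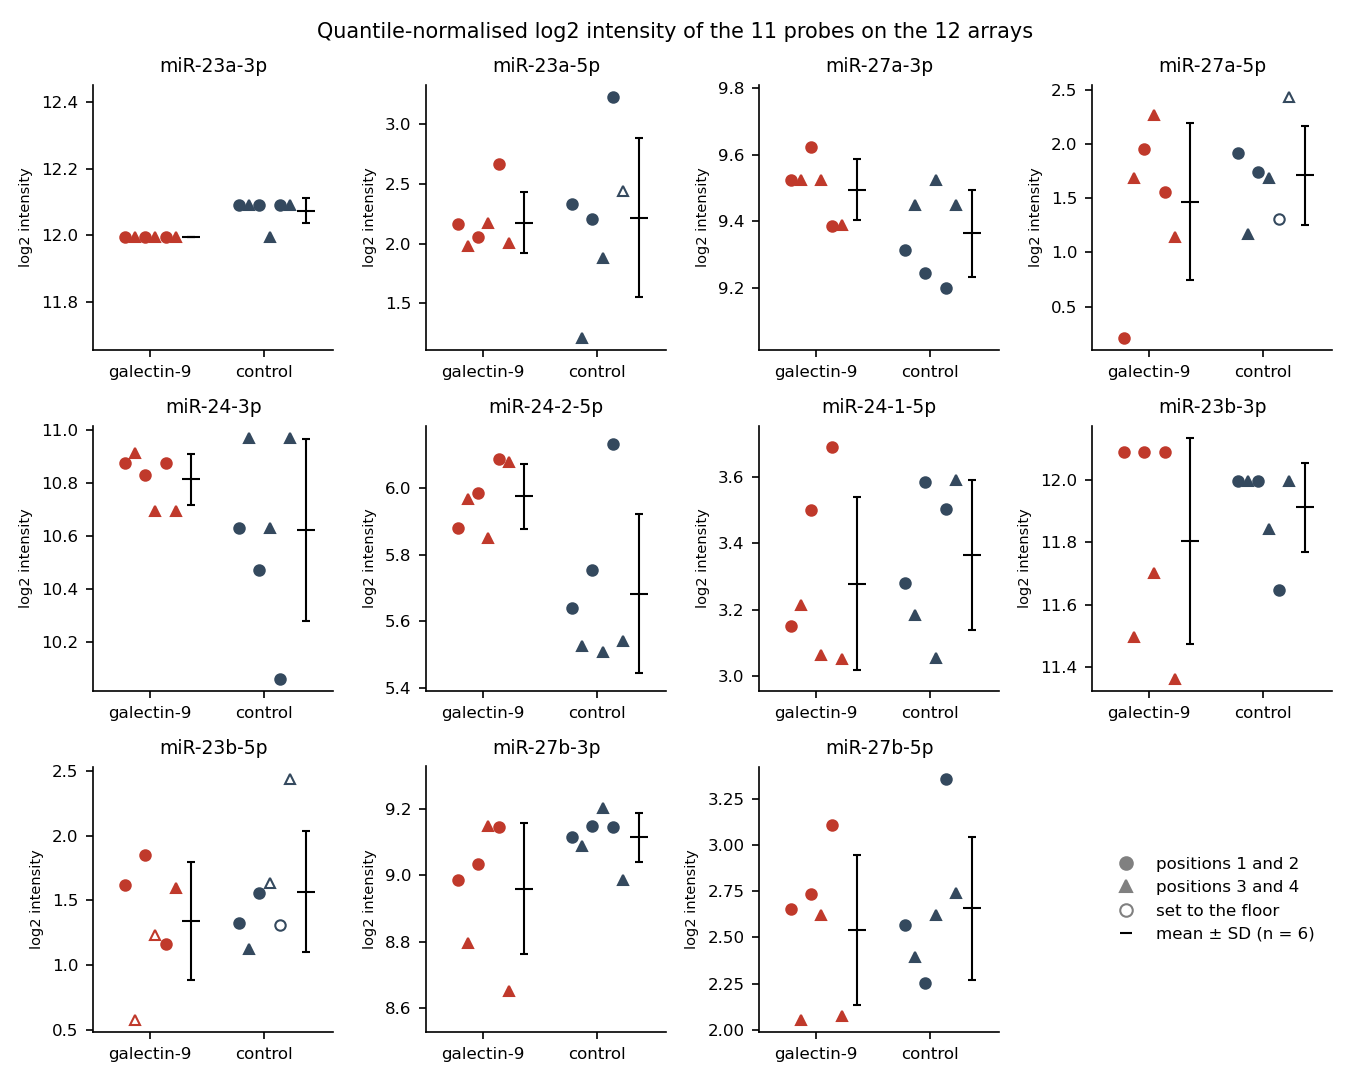
Quantile-normalised log2 intensity (vertical axes, each with its own range) of the 11 probes on 6 galectin-9 arrays (left, red) and 6 control arrays (right, dark). Circles are arrays at positions 1 and 2, triangles those at positions 3 and 4, open symbols were set to the array's floor, and bars give mean ± SD (n = 6). For miR-23b-3p the 3 galectin-9 triangles, at position 4, are the lowest of its group, while for miR-23a-3p all galectin-9 arrays sit at 11.99.

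Among the 3p arms, miR-23a-3p was bright on every array and was held in place by the normalisation. Before normalisation its background-subtracted intensity had a lowest, median and highest value of 3890, 4679 and 5184 on galectin-9 arrays, against 3185, 3667 and 4237 on control arrays. The galectin-9 arrays were brighter in 5 of 6 pairs of equal replicate number, but the groups overlapped. Its rank among the human probes was 7 on all galectin-9 arrays and 6 or 7 on control arrays. Quantile normalisation gives each rank a fixed value, so the log2 intensity became 11.99 ± 0.0006 with galectin-9 and 12.07 ± 0.04 in controls (SD, n = 6 each). The log2 difference was then -0.08 (95% interval -0.23 to 0.07, limma adjusted p = 0.648). When arrays were scaled instead to the median of the 891 probes detected on all of them, it turned to 0.23 (-0.06 to 0.52, limma adjusted p = 0.562). With normexp background correction the difference of -0.08 passed (limma adjusted p = 0.0346), the only member to pass under any alternative.

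miR-27a-3p, the next arm of the chromosome 19 cluster, had background-subtracted intensities of 642, 826 and 925 on galectin-9 arrays (lowest, median, highest), against 466, 627 and 694 on control arrays. It was higher with galectin-9 in 6 of 6 pairs before normalisation, in 5 with median scaling and in 4 after quantile normalisation, and the groups overlapped. Its normalised log2 intensity was 9.50 ± 0.09 with galectin-9 and 9.36 ± 0.13 in controls (SD, n = 6 each), a difference of 0.13 (95% interval -0.06 to 0.32, limma adjusted p = 0.539). With median scaling the difference was 0.32 (0.04 to 0.60, limma adjusted p = 0.389). Its sign was positive under all 30 alternatives tested, with a range of 0.10 to 0.56. Within positions 1 and 2 the quantile-normalised difference was 0.26, and within positions 3 and 4 it was 0.005 (0.58 and 0.06 with median scaling).

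miR-24-3p, which both clusters encode, had intensities of 1576, 1979 and 2299 on galectin-9 arrays (lowest, median, highest), against 832, 1541 and 1915 on control arrays. The lowest control value, 832, was that of replicate 5. The log2 intensity was 10.81 ± 0.10 with galectin-9 and 10.62 ± 0.34 in controls (SD, n = 6 each). The difference of 0.19 (95% interval -0.12 to 0.51) did not pass (limma adjusted p = 0.592), nor did the 0.39 found with median scaling (limma adjusted p = 0.419). Without control 5 the quantile-normalised difference was 0.079. The difference was 0.47 within positions 1 and 2 and -0.09 within positions 3 and 4.

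miR-24-2-5p, the passenger arm particular by sequence to MIR24-2 on chromosome 19, had the smallest unadjusted p of the members. Its intensity was 58.3, 65.1 and 68.2 on galectin-9 arrays (lowest, median, highest), against 37.9, 49.3 and 56.9 on control arrays. Before normalisation the groups did not overlap, which was so for 1.1% of tested probes, and all 6 pairs were brighter with galectin-9. After quantile normalisation they overlapped, because control 5 had a log2 intensity of 6.13 while the other controls had at most 5.75 and the galectin-9 arrays lay between 5.85 and 6.09. The means were 5.97 ± 0.10 with galectin-9 and 5.68 ± 0.24 in controls (SD, n = 6 each). The log2 difference was 0.29 (95% interval 0.04 to 0.54, a 1.22-fold level, limma adjusted p = 0.314). Within slides 1, 2 and 3 it was 0.34, 0.29 and 0.25. It was 0.14 within positions 1 and 2 and 0.44 within positions 3 and 4. Over the 30 alternatives tested it stayed positive, from 0.15 to 0.58, with adjusted p from 0.157 to 0.695. With median scaling its groups also overlapped, and 0.75% of tested probes had groups that did not.

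**Figure D2:**
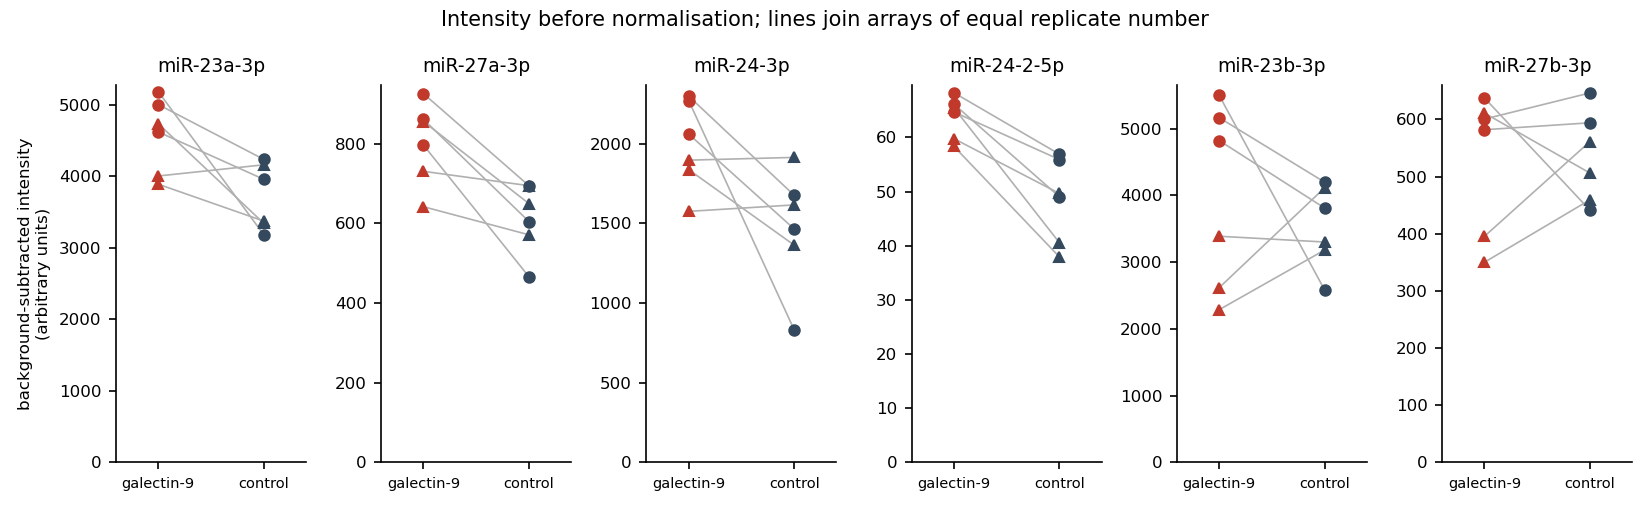
Background-subtracted intensity before normalisation (vertical axes from 0, arbitrary units) of 6 probes on galectin-9 arrays (left, red) and control arrays (right, dark), with lines joining arrays of equal replicate number. Circles are odd replicate numbers (positions 1 and 2), triangles even ones (positions 3 and 4). For miR-24-2-5p all galectin-9 arrays (58.3 to 68.2) lie above all control arrays (37.9 to 56.9), and for miR-23b-3p the galectin-9 circles (4821 to 5499) lie above all control arrays while 2 of the 3 galectin-9 triangles lie below the control array of their number.

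miR-23b-3p, the chromosome 9 paralog of miR-23a-3p, split by position on the slide. Its background-subtracted intensities at position 2, with galectin-9, were 5164, 4821 and 5499 on slides 1, 2 and 3. At position 4, also with galectin-9, they were 2616, 3387 and 2287. Control arrays had 4197, 3810 and 2583 at position 1 and 4113, 3301 and 3180 at position 3. The galectin-9 arrays at position 2 were thus brighter than all controls, while at position 4 the arrays of slides 1 and 3 were dimmer than the controls of the same replicate number and the array of slide 2 was not.

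In the normalised data miR-23b-3p had a log2 intensity of 11.80 ± 0.33 with galectin-9 and 11.91 ± 0.14 in controls (SD, n = 6 each). The difference was -0.11 (95% interval -0.43 to 0.21, limma adjusted p = 0.792), made of 0.21 within positions 1 and 2 and -0.42 within positions 3 and 4. Without galectin-9 replicate 6 it was -0.018, without replicate 2 it was -0.045, and without replicate 1, 3 or 5 it was -0.16. With median scaling the total turned to 0.04, made of 0.59 and -0.52. The difference between the 2 position pairs was -0.63 (95% interval -1.06 to -0.21), which did not pass in limma over all tested probes (adjusted p = 0.420). Of the members 2 reached an unadjusted p under 0.05 in this comparison, miR-23b-3p and miR-24-3p (limma adjusted p = 0.523), against 8.77% of tested probes. With median scaling miR-27a-3p did so as well (-0.52, limma adjusted p = 0.588). That made 3 members, against 138 of the 1734 tested probes, and miR-23b-3p then had -1.11 (limma adjusted p = 0.237). At the adjusted threshold 0% of probes passed. This comparison was added after the values were seen.

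miR-27b-3p, the chromosome 9 paralog of miR-27a-3p, had intensities of 350, 591 and 638 on galectin-9 arrays (lowest, median, highest), against 442, 534 and 646 on control arrays. The 2 lowest galectin-9 values, 350 and 395, were both at position 4. Its log2 intensity was 8.96 ± 0.20 with galectin-9 and 9.11 ± 0.07 in controls (SD, n = 6 each). The difference of -0.15 (95% interval -0.38 to 0.07) did not pass (limma adjusted p = 0.531), and it was higher with galectin-9 in 0 of 6 pairs. With median scaling the difference was -0.11, and 2 of 6 pairs were higher both on that scale and before normalisation.

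miR-24-1-5p, the arm of MIR24-1 on chromosome 9, had intensities of 7.64, 10.1 and 11.4 on galectin-9 arrays, against 7.38, 9.43 and 13.3 on control arrays (lowest, median, highest). Its log2 difference was -0.09 (95% interval -0.39 to 0.22, limma adjusted p = 0.823), with 3 of 6 pairs higher. Its interval overlapped that of miR-24-2-5p (0.04 to 0.54), and the difference between these arms was not tested.

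The remaining 5p arms were dim, with intensities of at most 8.03 on galectin-9 arrays and 7.61 on control arrays, where an array's detection limit lay 1.5 to 3.19 above background. miR-27b-5p was detected on all 12 arrays (log2 difference -0.12, 95% interval -0.58 to 0.35) and miR-23a-5p on 6 galectin-9 and 5 control arrays (-0.04, -0.62 to 0.54). miR-27a-5p was detected on 6 galectin-9 and 4 control arrays (-0.24, -0.93 to 0.45) and miR-23b-5p on 4 galectin-9 and 3 control arrays (-0.23, -0.76 to 0.30). Their adjusted p in limma ran from 0.729 for miR-23b-5p to 0.959 for miR-23a-5p. On control 6, which had 934 detected probes and the highest floor, a log2 value of 2.44, miR-23a-5p, miR-27a-5p and miR-23b-5p were set to that floor. For miR-27a-5p the interval ran from a 0.525-fold to a 1.36-fold level, so these arms leave sizeable differences in either direction undetectable.

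**Figure D3:**
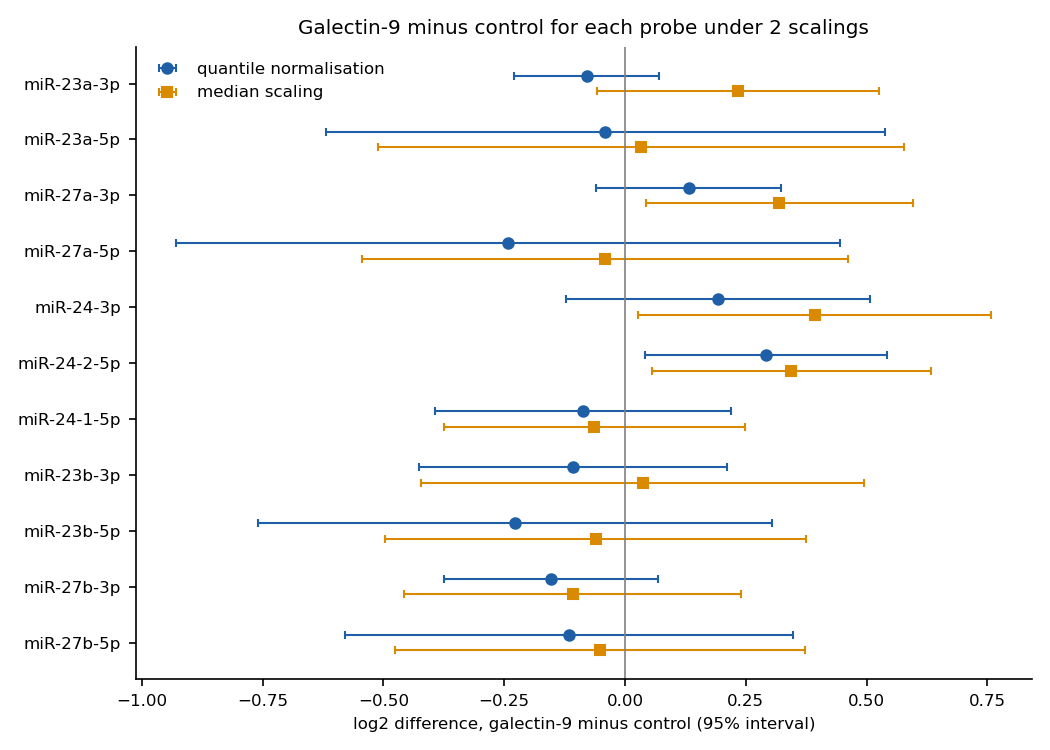
Log2 difference, galectin-9 minus control, of each of the 11 probes (horizontal axis) with 95% intervals from limma (n = 6 arrays a group), after quantile normalisation (blue circles) and after median scaling (orange squares). Under quantile normalisation only the interval of miR-24-2-5p (0.04 to 0.54) leaves out 0, and miR-23a-3p moves from -0.08 to 0.23 between the scalings.

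The direction of miR-23a-3p and most dim arms thus followed the scaling, while miR-27a-3p, miR-24-3p and miR-24-2-5p were above 0 under each one tried. Between the groups, the median shift over all tested probes was 0.06 without normalisation and 0.23 with the authors' global normalisation, which uses the median of whatever probes each array lists. Beside those shifts, the log2 difference of miR-23a-3p was 0.30 without normalisation and 0.47 with the authors' scaling, and that of miR-27b-3p was -0.04 and 0.13. Above 0 were 3 members with quantile normalisation, 6 with median scaling, 10 without normalisation and 11 with the authors' scaling. Of all tested probes, 36.6% lay above 0 with quantile normalisation and 48.6% with median scaling.

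The ratio of a pair of probes on the same array does not depend on any scaling factor of that array, so paralogs and neighbours were compared within arrays, for 4 pairs. The paralogs miR-27b-3p and miR-27a-3p differed in their shift when the groups were compared without pairing. The call was lost with arrays paired by replicate number, where 1 pair of probes alone cannot pass after adjustment. The log2 difference of miR-27b-3p minus miR-27a-3p, from background-subtracted intensities, was -0.63 ± 0.22 with galectin-9 and -0.20 ± 0.145 in controls (SD, n = 6 each). The probes' own brightness enters these values, so only the shift between groups is read. The main scale was the quantile-normalised one, given below, where the shift was smaller and its call was lost without most single arrays. On the unnormalised scale, an alternative, the shift of -0.43 had an exact permutation p of 0.00433 (two-sided, 924 splits) and an adjusted p of 0.0173 over the 4 pairs. With signs flipped within the 6 pairs of equal replicate number (replicate block, exact permutation test) p was 0.0312, the smallest these pairs can give, and 0.125 after adjustment. The value was lower with galectin-9 in 6 of 6 pairs. Without pairing, in unnormalised runs added after the data were seen, the shift passed with each of the 12 arrays left out in turn (shifts from -0.49 to -0.38, adjusted p from 0.00866 to 0.0346, exact permutation tests). Without the 3 arrays at position 4 it was -0.31 and did not pass (exact permutation p = 0.0357, adjusted p = 0.0714).

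Single values of this pair were -0.62, -0.56 and -0.32 at position 2 and -0.89, -0.48 and -0.87 at position 4, both with galectin-9. Controls had -0.10, -0.02 and -0.08 at position 1 and -0.31, -0.36 and -0.31 at position 3. The groups overlapped slightly over all arrays but not within positions 1 and 2 or within positions 3 and 4, where the shift was -0.43 and -0.42. Within slides 1, 2 and 3 it was -0.55, -0.33 and -0.40. On quantile-normalised values, the main scale, the shift was -0.29 (exact permutation p = 0.0238, adjusted p = 0.0476). That call was lost when any array other than galectin-9 replicate 5 was left out, with shifts from -0.33 to -0.24. The replicate block gave the same p values on this scale as before normalisation, 0.0312 and 0.125 after adjustment (exact permutation test).

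The miR-23 paralogs gave no call over all arrays. miR-23b-3p minus miR-23a-3p was -0.28 ± 0.39 with galectin-9 and -0.08 ± 0.11 in controls (SD, n = 6 each, background-subtracted), a shift of -0.20 (exact permutation p = 0.249, adjusted p = 0.253). The single values were 0.05, 0.06 and 0.09 at position 2, against -0.61, -0.48 and -0.77 at position 4, both with galectin-9. The controls lay between -0.30 and -0.01. At position 4 all 3 arrays were thus below all other arrays, with a shift of -0.58 within positions 3 and 4 and of 0.19 within positions 1 and 2. Without position 4 the shift turned to 0.15 (exact permutation p = 0.0595, adjusted p = 0.0794). On quantile-normalised values it turned to 0.26 (exact permutation p = 0.0119, adjusted p = 0.0476). Position 4 was left out because of these same values, so these p values decide nothing. Arrays at position 4 are the even galectin-9 replicates, so position, replicate number and any property of those samples cannot be told apart.

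**Figure D4:**
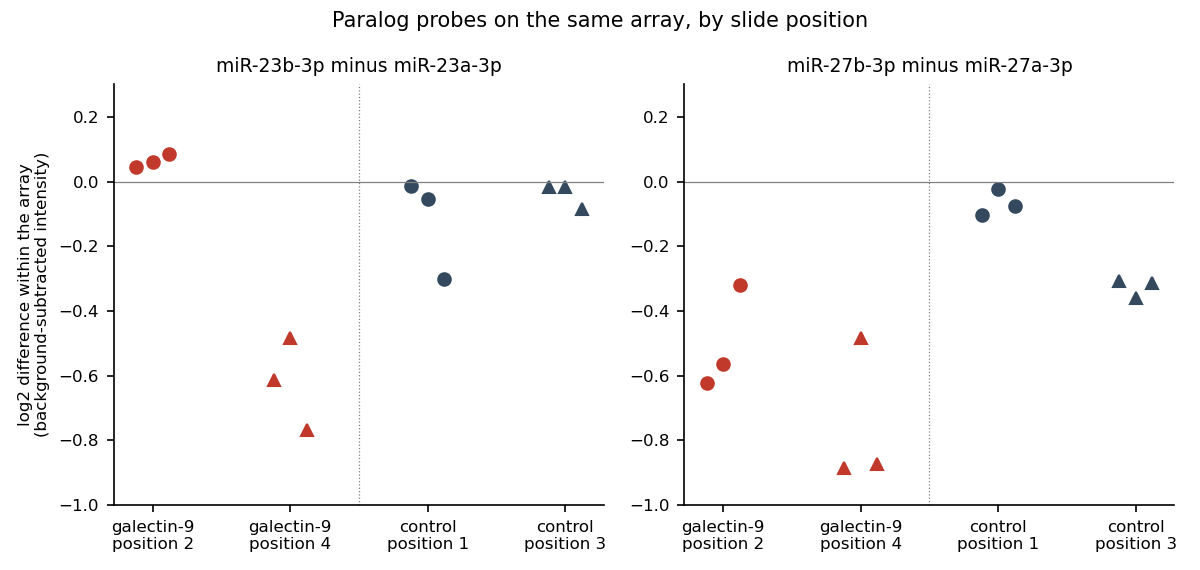
Log2 difference within an array between the paralog probes (vertical axis, background-subtracted intensity), for miR-23b-3p minus miR-23a-3p (left) and miR-27b-3p minus miR-27a-3p (right), by treatment and slide position, with 1 point per slide. The left plot shows the galectin-9 arrays at position 4 (-0.77 to -0.48) below all others, and the right plot shows both galectin-9 positions below the control position of the same pair.

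Neighbours within a cluster gave no call over all arrays on background-subtracted intensities. The shift between groups was 0.09 for miR-27a-3p minus miR-23a-3p and -0.14 for miR-27b-3p minus miR-23b-3p (exact permutation p = 0.253 and 0.238, adjusted p = 0.253 each). The latter was made of -0.44 within positions 1 and 2 and 0.16 within positions 3 and 4. Without position 4 it was -0.37 (exact permutation p = 0.0119, adjusted p = 0.0476). On quantile-normalised values that was -0.24 (exact permutation p = 0.0833, adjusted p = 0.111). Position 4 was left out after its values were seen, so these p values decide nothing. For miR-27a-3p minus miR-23a-3p the shift on quantile-normalised values was 0.21 (exact permutation p = 0.0173, adjusted p = 0.0476), where the value of miR-23a-3p was set by its rank. That call was lost with the replicate block (exact permutation p = 0.0625, adjusted p = 0.125) and when any array other than control 4 or galectin-9 replicate 5 was left out (shifts from 0.18 to 0.23).

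Over the 12 arrays, neighbours and the miR-23 paralogs varied together before normalisation, when differences in brightness between arrays were not removed. The part of those differences in the correlations was not tested. Pearson's r was 0.89 between miR-23a-3p and miR-27a-3p (permutation p = 0.00013, adjusted p = 0.00052) and 0.88 between miR-23b-3p and miR-27b-3p (permutation p = 0.00011, adjusted p = 0.00052). Spearman's rho was 0.87 (permutation p = 0.00042) and 0.84 (permutation p = 0.00107) for these pairs. Between miR-23a-3p and miR-23b-3p, r was 0.72 (permutation p = 0.00858, adjusted p = 0.0114) and rho 0.82 (permutation p = 0.00178, adjusted p = 0.00285), while between miR-27a-3p and miR-27b-3p both were 0.50 (permutation p = 0.0979 and 0.103, adjusted p = 0.103 each). After quantile normalisation neither relation between neighbours held after adjustment over the 8 values of 4 pairs, with r of -0.68 (permutation p = 0.0191, adjusted p = 0.135) and rho of -0.45 (permutation p = 0.139) for the chromosome 19 neighbours. For those on chromosome 9, r was 0.61 (permutation p = 0.0337, adjusted p = 0.135) and rho 0.05 (permutation p = 0.875). Without the 2 arrays farthest from the median of the miR-23 arm, chosen for each pair on its own, r was -0.72 and -0.55. The positive r on chromosome 9 thus rested on the arrays left out there, galectin-9 replicates 2 and 6. For miR-23a-3p several control arrays tied as farthest, at 12.09, so the choice among them was arbitrary. For the paralogs after quantile normalisation, r was 0.24 between miR-23a-3p and miR-23b-3p (permutation p = 0.462) and -0.20 between miR-27a-3p and miR-27b-3p (permutation p = 0.539), with rho of -0.0039 (permutation p = 0.988) and -0.22 (permutation p = 0.481). Deviations from slide and group means gave r of -0.44 and 0.60 for the neighbours and 0.18 and -0.13 for the paralogs.

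Of 6 relatives by seed or locus, 5 were tested and 0 passed in limma, with 2 above 0, 3 below and a median log2 difference of -0.0063. miR-23c, with the seed of miR-23, had a log2 intensity of 6.71 ± 0.09 with galectin-9 and 6.30 ± 0.37 in controls (SD, n = 6 each), a difference of 0.41 (95% interval 0.08 to 0.74, limma adjusted p = 0.30). It was the only relative at an unadjusted p under 0.05. By sequence miR-23c differs from miR-23a-3p at 2 of 21 compared bases and from miR-23b-3p at 2 of 22. Signal that its probe may share with these brighter members was not tested. miR-128-3p, whose seed overlaps that of miR-27, differed by 0.05 (adjusted p = 0.861 in limma). From the strand opposite to MIR24-1, miR-3074-3p was detected on 4 galectin-9 and 3 control arrays (-0.55, limma adjusted p = 0.522), and miR-3074-5p on 3 and 2, too few for a test.

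The probes whose pattern over the 12 arrays was most like the mean deviation of the 8 members detected on all arrays were, by Pearson's r on the quantile scale, miR-625-3p (0.88), miR-769-5p (0.87), miR-532-5p (0.85), miR-339-5p (0.85) and miR-7-5p (0.83). With median scaling they were miR-99b-5p (0.97), miR-205-5p (0.96), miR-30c-5p (0.94), miR-221-5p (0.93) and miR-151b (0.93), none of them in the first set. These are descriptions over shared arrays.

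Lists of other cell types held no called probe in limma. The summed linear level of the blood markers ran from 15.7 to 28.9 on galectin-9 arrays and from 22.6 to 50.8 on control arrays, and of the muscle markers from 8.45 to 11.4 and from 11.7 to 23.4. For the mesenchymal markers it was 16.6 to 31.6 with galectin-9 and 24.9 to 39.8 in controls, and for the endothelial markers 45.3 to 72.3 and 45.5 to 60.1. Most blood, muscle and mesenchymal probes lay at the floor of some arrays. The median log2 differences of these lists were -0.21, -0.40 and -0.41 with a floor for each array, and 0, -0.0595 and 0 with one floor for all arrays. Their part in the members' values was not tested.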

How the data were processed

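Each of the 12 deposited array files gives, per the file headers, 3 kinds of linear spot intensity in arbitrary units: raw, background-subtracted and after global normalisation. In the values, the authors' global normalisation puts each array's median over listed human probes at 25. The authors' deposited series table holds intensity on a linear, uncentred scale with the same sorted values in every column, read from the values. Which scanner was used is not given in the sources at hand.

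Here each array's background was subtracted from its raw values, and all human probes were then quantile-normalised together with limma 3.58.1 in R 4.3.3. Undetected spots were set to the array's lowest detected value and log2 was taken. Left out were 6 flagged spots. Probes detected on at least 6 arrays were tested with lmFit and eBayes, two-sided, with Benjamini-Hochberg adjustment over all of them. The pipeline was tested on simulated data. Pairs of probes were compared with exact permutation tests over arrays, and correlations with 100000 resamples in Python 3.11.15.

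Deviations from group means correlated between arrays of equal replicate number at 0.171 to 0.527 (6 of 6 above 0.1), against a median of -0.04 for others. By this the numbers were taken as pairs from these data. The main limma fit and the main tests of probe pairs still compared the groups without pairing, and the replicate block was an alternative. Arrays of equal number also shared a slide and a position pair, so the correlation cannot tell paired samples from shared placement. The members, the lists and the rule for naming probes (all members, the relatives, the markers and the 5 most similar probes) were chosen with earlier results of these data known. Alternatives covered normalisation, background, floor, filter, blocks, single arrays and moderation, and median scaling, the sign flips over pairs, the unnormalised pairs with arrays or slides left out and the comparisons by position were added after seeing the data. The number of arrays limits the precision.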

Additional observations from a re-analysis of the deposited data

Results flagged for a closer look

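In 22 sets of 6 arrays (11 probes in each group), 3 single arrays stood apart from the other 5 of their group by more than Dixon's limit for 6 samples. Chance gives about 1 in 20. miR-23a-3p on galectin-9 replicate 5 had a log2 intensity of 11.99, which equals the other galectin-9 arrays at 2 decimals. On control 4 it had 11.99 while the other controls had 12.09, a step of 1 rank. miR-23a-5p on galectin-9 replicate 5 had 2.67, against 1.98 to 2.17 on the other galectin-9 arrays.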

How the results depend on the processing

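The 11 members gave 324 values under 30 alternatives, of which 1 passed (miR-23a-3p with normexp, adjusted p = 0.0346 in limma) and 39 had the other sign; the causes were not tested. Differences in log2 (galectin-9 minus control) that turned positive were, without normalisation, 0.30 for miR-23a-3p, 0.10 for miR-23a-5p, 0.028 for miR-27a-5p, 0.0060 for miR-24-1-5p, 0.11 for miR-23b-3p, 0.0088 for miR-23b-5p and 0.019 for miR-27b-5p. With the authors' global normalisation they were 0.47 for miR-23a-3p, 0.27 for miR-23a-5p, 0.20 for miR-27a-5p, 0.18 for miR-24-1-5p, 0.28 for miR-23b-3p, 0.18 for miR-23b-5p, 0.13 for miR-27b-3p and 0.19 for miR-27b-5p. Normexp gave 0.013 for miR-27a-5p and 0.011 for miR-23b-5p, and no floor gave 0.20 and 0.16. Without slide 3, miR-23a-5p was 0.19 and miR-27b-5p 0.055. Median scaling gave 0.23 for miR-23a-3p, 0.033 for miR-23a-5p and 0.036 for miR-23b-3p. Without position 4, miR-23a-5p was 0.081, miR-24-1-5p 0.082, miR-23b-3p 0.18 and miR-27b-5p 0.17, and with median scaling as well, miR-23a-3p was 0.36, miR-23a-5p 0.15, miR-24-1-5p 0.11, miR-23b-3p 0.50, miR-23b-5p 0.14, miR-27b-3p 0.13 and miR-27b-5p 0.22. Leaving out single arrays gave -0.24 to 0.16 for miR-23a-5p, -0.40 to 0.011 for miR-27a-5p, 0.079 to 0.26 for miR-24-3p, -0.16 to -0.018 for miR-23b-3p, -0.33 to -0.053 for miR-23b-5p (highest without control 6), -0.17 to -0.042 for miR-24-1-5p (highest without galectin-9 replicate 6), -0.19 to -0.092 for miR-27b-3p (highest without galectin-9 replicate 6) and -0.23 to 0.0245 for miR-27b-5p. The count of probes past the threshold, 3, was 9 in the authors' series table, 19 with normexp, 9 with one floor, 9 among probes detected on all arrays, 5 with slide as a block, 14 with trend and robust moderation, 0 without slide 1, 2 or 3, 0 without position 4, and 2 to 5 with single arrays left out. With the replicate number as a block it was 1, and no member's call changed. For quantile-normalised pairs, the shift of miR-27b-3p minus miR-27a-3p did not pass without slide 1 (-0.25), slide 2 (-0.29) or slide 3 (-0.31), without position 4 (-0.21) or with sign flips over the replicate block (-0.29), and single arrays left out gave -0.34 to -0.24. Unnormalised, it was -0.37, -0.48 and -0.44 without slides 1, 2 and 3 (unadjusted exact permutation p = 0.0571, 0.0286 and 0.0286, the last value being the smallest possible). None of these passed after adjustment, and with 4 arrays against 4, 1 pair of probes alone cannot. The unnormalised shift was -0.31 without position 4 and -0.49 to -0.38 without single arrays. The replicate block did not pass on this scale either (exact permutation, adjusted p = 0.125). The shift of miR-23b-3p minus miR-23a-3p was 0.012 without slide 1, 0.26 without position 4 (0.15 unnormalised) and -0.085 to 0.061 without single arrays, and that of miR-27b-3p minus miR-23b-3p -0.10 to 0.012. Correlations that changed sign were 0.50 (miR-27a-3p with miR-27b-3p) and 0.89 (miR-23a-3p with miR-27a-3p) unnormalised, and 0.061 (miR-27a-3p with miR-27b-3p) and -0.55 (miR-23b-3p with miR-27b-3p) without 2 arrays. Signal near background limits miR-23a-5p, miR-27a-5p and miR-23b-5p, which were not detected on every array.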

Other observations

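Within the controls alone, miR-27b-3p minus miR-27a-3p (log2, background-subtracted) lay between -0.10 and -0.02 at position 1 and between -0.36 and -0.31 at position 3, with no overlap over the 3 slides. Samples at these positions also differ in replicate number (odd at position 1, even at position 3), so position and sample cannot be told apart.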
